A study of Bos taurus with 2 samples.

Results

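ADIPOQ, PPARG, CEBPA, FABP4, LEP, PLIN1 and LPL are genes of the fat cell programme. LEPR, in marrow a marker of stromal cells, was listed with them. All 8 were taken by name as fat cell genes, with earlier results of these data known. They are 8 of 36056 annotated genes on chromosomes 1 to 29 and X. CpG methylation was measured in 2 samples of bone labelled as female Holstein cattle, here called bone sample 1 and bone sample 2, which form a single untreated group in a larger survey of cattle tissues. Whole-genome bisulfite sequencing (WGBS) was used, in which bisulfite converts cytosines without a methyl group, and each read of a CpG is called methylated or not. The labels give no age, and no source used here says whether the samples came from 1 or 2 animals, which bone was taken or whether it held marrow.

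Fat cells arise from stromal progenitors, which in marrow also give rise to bone forming cells. PPARG and CEBPA are the transcription factors that switch on and maintain the fat cell programme, FABP4, PLIN1 and LPL carry, coat and take up lipid, and ADIPOQ and LEP encode the hormones adiponectin and leptin. LEPR encodes the leptin receptor and in marrow is best known as a marker of stromal cells that lie around vessels. CpG-dense promoters are mostly free of methylation whether or not the gene is used, whereas CpG-poor promoters are often methylated in cells that do not use the gene and lose methylation in those that do.

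A methylation level is given as methylated calls over all calls, in percent, with both strands of a CpG site merged. Bone sample 1 had 582241763 calls and bone sample 2 had 440334436, and methylation over the chromosomes was 72.3% and 58.7%. The median was 13 and 14 calls per CpG site. Levels of regions therefore come from sums over sites, and intervals are 95% Wilson intervals that cover counting error only. In such bulk tissue, a smaller share of cells that carry methylation and partial methylation in all cells cannot be told apart.

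The start region of a gene runs from 1000 bp outside its annotated start to 500 bp inside it. The gene table holds no strand, so the start of each member was taken from the order of its neighbouring genes, and the opposite end is given as the far end. That table belongs to the ARS-UCD2.0 assembly while the submitters' notes name ARS-UCD1.2, so only positions of CpG sites from the deposited counts are printed. Methylation dipped at annotated gene ends, as it would where the genes are placed about right. Of windows 0 to 1000 bp inside all gene ends, 21.3% were under 20% in both samples, against 3.46% of windows from 9000 to 10000 bp inside.

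The members differed widely in methylation at their starts. CEBPA was nearly free of methylation, LEPR, LPL and LEP were low to intermediate, and PPARG, PLIN1, FABP4 and ADIPOQ were methylated at close to or above 50% in both samples. PPARG lay below the medians of end regions with 15 to 39 CpG sites, 80.6% and 61.6%. End regions with under 15 sites had medians of 78.1% and 59.4%. PLIN1 lay below both, and FABP4 below that of bone sample 2 and above that of bone sample 1. Both samples were under 20% at the start regions of 2 members, CEBPA and LEPR. Of all 69315 gene end regions tested, which pool starts and far ends, 19.4% were. With both ends of the members counted, 3 of 16 were under 20% in both samples. Counted by gene, 2 of 8 members had at least 1 such end, against 35.2% of all genes and 51.6% of protein-coding genes. Within a shorter stretch from 250 bp outside to 50 bp inside the start, LPL and LEP were also under 20% in both samples. This made 4 of the 7 members with at least 20 calls in that stretch (all but FABP4). Of such regions at either end of all genes 34.6% were, so that share also pools starts and far ends.

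**Figure D1:**
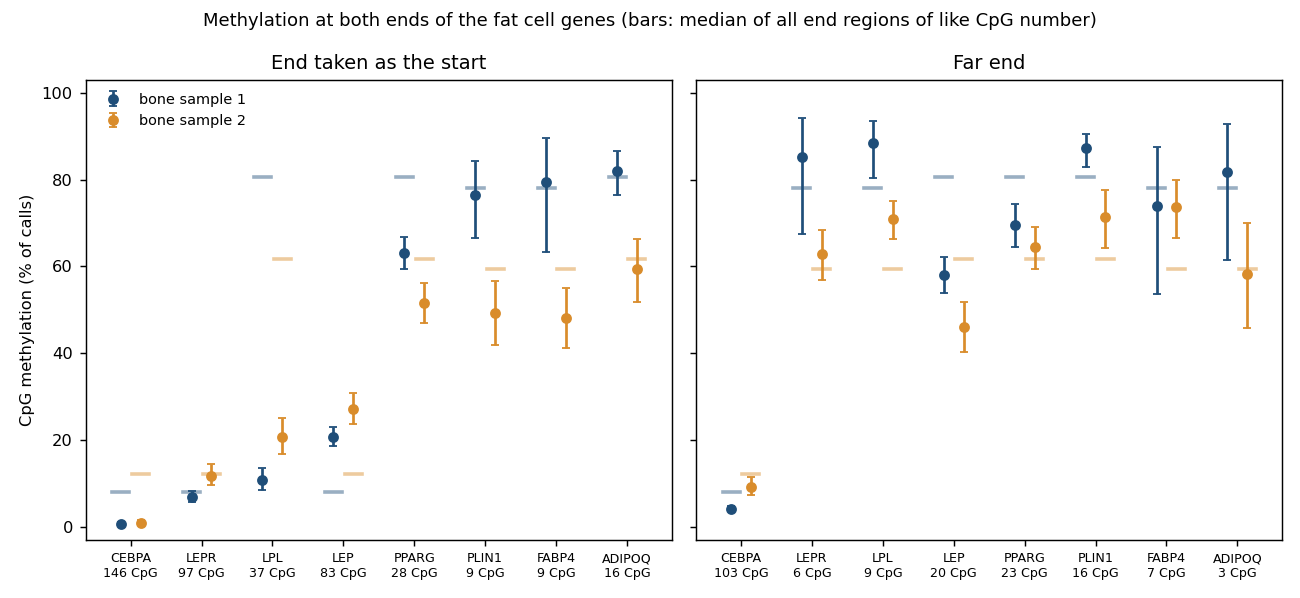
CpG methylation in percent of calls at the start region (left) and far end region (right) of each gene, for bone sample 1 (blue) and bone sample 2 (orange), with 95% Wilson intervals as error bars and the number of CpG sites under each name. Short bars mark the median of all end regions of like CpG number in each sample. CEBPA sits near 0 at its start in both samples, while LPL lies far below the medians of its class, 80.6% and 61.6%. With 37 sites LPL is near the upper edge of that class (15 to 39 sites). The class of 40 or more sites has medians of 7.98% and 12.1%.

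CEBPA, a single-exon transcription factor gene on chromosome 18, had 146 CpG sites in its start region, from the CpG at 43728980 to that at 43730428. Bone sample 1 was at 0.685% of 2480 calls and bone sample 2 at 0.915% of 1202 calls (0.800% ± 0.162, SD, n = 2). The difference was within counting error (adjusted p = 0.593, two-sided Fisher's exact test with Benjamini-Hochberg adjustment over all end regions). Of 139 sites that had 5 or more calls in both samples, 128 had no methylated call in bone sample 1 and 129 had none in bone sample 2. The highest single site was at 26.7% in bone sample 1 and at 14.3% in bone sample 2, and end regions with 40 or more CpG sites had medians of 7.98% and 12.1%.

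The unmethylated stretch of CEBPA covered the whole gene and reached past it on both sides. In the window from 1000 to 2000 bp upstream it was 9.48% of 401 calls and 5.86% of 614 calls. Over the gene itself, 26 of 4382 calls were methylated in bone sample 1 and 9 of 808 in bone sample 2. From 1000 to 2000 bp downstream of the start the values were 5.19% and 7.82%. These windows mark the width of the stretch, since beyond 2000 bp upstream the level was 74.0% and 57.1%, and beyond 2000 bp downstream it was 38.9% and 37.9%. The highest window lay 5000 to 6000 bp upstream, at 93.4% and 70.7%.

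PPARG, which encodes the nuclear receptor that fat cells cannot form without, had 28 CpG sites in its start region on chromosome 22, from 56775395 to 56776790. Bone sample 1 was at 63.2% of 638 calls and bone sample 2 at 51.6% of 438 calls (57.4% ± 8.18, SD, n = 2). This average hides a gradient. In the 250 bp before the start 34.9% and 40.7% of calls were methylated, in the 250 bp after it 71.3% and 55.2%, and from 250 to 500 bp after it 90.7% and 77.9%. Farther upstream the calls were few and the levels mixed, with 6 of 8 and 26 of 41 calls methylated from 250 to 500 bp. From 500 to 750 bp 0 of 8 and 5 of 25 were methylated, and from 750 to 1000 bp 2 of 17 and 32 of 73.

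Around PPARG 2 dips stood out. The 1000 bp before the start were at 33.2% of 202 calls and 43.1% of 274 calls, and the lowest window lay from 2000 to 3000 bp inside the gene, at 31.0% of 332 calls and 34.4% of 398 calls over 21 CpG sites (56772828 to 56773761). Neither dip was under 20% in either sample, and no window of PPARG was. In the latter window the samples did not differ at an odds ratio of 1 (adjusted p = 0.395, Fisher's exact test), whereas 17 of the 19 windows tested around PPARG were lower in bone sample 2. Relative to the genome-wide difference that window did differ, as given with the other windows below. The next window inside, from 3000 to 4000 bp, was at 87.8% and 60.9%, and the highest, from 4000 to 5000 bp upstream, was at 90.9% and 74.9%. The other window with a wide difference lay from 9000 to 10000 bp inside, at 87.5% and 56.4%.

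LPL encodes lipoprotein lipase, which frees fatty acids from circulating lipoproteins. Its start region on chromosome 8 (66988729 to 66990164) had 37 CpG sites, where 62 of 578 calls were methylated in bone sample 1 (10.7%) and 76 of 368 in bone sample 2 (20.7%, mean 15.7% ± 7.02, SD, n = 2). Of end regions with 15 to 39 CpG sites, 2.03% were under 20% in both samples, and LPL was just above that limit in bone sample 2. That class has a median of 22 sites, and LPL lies near its upper edge. Of end regions with 40 or more sites, 60.3% were under 20% in both samples, with medians of 7.98% and 12.1%. Most methylated calls lay more than 250 bp upstream of the start. From 750 to 1000 bp upstream, 2 sites were at 91.4% and 74.1%. From 500 to 750 bp upstream 5 of 10 and 11 of 23 calls were methylated, and from 250 to 500 bp 0 of 1 and 16 of 37. In the 250 bp inside the start 1 of 276 and 6 of 130 calls were methylated.

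The first 1000 bp of LPL were its lowest window, with 53 CpG sites, 4 methylated calls of 661 in bone sample 1 (0.605%) and 9 of 425 in bone sample 2 (2.12%). Low levels went on into the next window, at 12.5% and 11.6%, and ended from 2000 bp onward, at 75.8% and 53.4%. The highest window lay 4000 to 5000 bp upstream, at 97.5% of 80 calls and 65.05% of 206 calls. The annotated start of LPL rests on 1 neighbour, SLC18A1, and the low stretch lay at that end, while the far end was at 88.4% and 71.0%.

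FABP4, the fatty acid binding protein of fat cells, had 9 CpG sites in its start region on chromosome 14 (44681030 to 44681897). Bone sample 1 had few calls there, 27 of 34 methylated (79.4%, interval 63.2 to 89.7%), against 95 of 198 (48.0%, 41.1 to 54.9%) in bone sample 2. The intervals do not overlap, and bone sample 1 was higher (adjusted p = 0.00133, Fisher's exact test). Of the 9 sites, 7 had under 5 calls in bone sample 1, so the site nearest the start, 8 of 12 and 9 of 15 calls methylated, was one of 2 with 5 or more calls in both samples. At these 2 sites together the levels were 64.7% of 17 calls and 54.5% of 44 calls, a difference that was not tested. No window within 10000 bp of FABP4 was low. The lowest by mean level, from 1000 to 2000 bp inside, was at 63.3% and 59.6%, and the highest, from 5000 to 6000 bp, was at 94.4% and 74.7%.

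PLIN1 encodes perilipin, the coat protein of lipid droplets. Its start region on chromosome 21 (21091652 to 21092824) had 9 CpG sites, where 65 of 85 calls in bone sample 1 (76.5%) and 85 of 173 in bone sample 2 were methylated (49.1%, mean 62.8% ± 19.3, SD, n = 2), and it overlaps the end region of the neighbouring PEX11A. Bone sample 1 was higher (adjusted p = 6.81e-05, Fisher's exact test), and 6 of 7 sites with 5 or more calls in both samples were higher in it. The call was lost with the stretch from 250 bp outside to 50 bp inside the start (adjusted p = 0.0868, Fisher's exact test) and with 1 site per 300 bp (0.0565), and with the region begun 2000 bp outside the start the odds ratio was 0.928 (adjusted p = 0.769, Fisher's exact test). The lowest window of PLIN1 lay 1000 to 2000 bp upstream, at 22.6% of 53 calls and 72.9% of 96 calls. It is the largest difference of any window of PLIN1 and the opposite of the direction of most. It rests on 3 sites, of which the one at -1991 bp took 43 of the 53 calls in bone sample 1 and had 3 of 43 and 8 of 19 calls methylated, while the other sites were at 80.0% or above and at 76.2% or above.

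Inside PLIN1 bone sample 1 stayed between 79.6% and 86.9% up to 5000 bp, with a wide difference from 1000 to 2000 bp (86.9% and 60.1%). From 5000 to 6000 bp 253 of 488 and 111 of 222 calls were methylated. The highest window lay 5000 to 6000 bp upstream, at 97.6% and 71.2%. Around PLIN1, the low stretches belonged to other annotated genes. The far end region of PLIN1 was at 87.2% and 71.3%. The upper end of KIF7, the gene after it, was at 16.6% and 14.6%, and the upper end of PEX11A, the gene before it, at 6.81% and 23.6%. The unweighted means of the sites at that end of PEX11A were 8.80% and 7.76%.

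ADIPOQ, which encodes adiponectin, a hormone made almost only by fat cells, was the most methylated member at its start. On chromosome 1 (80427127 to 80428408), its 16 CpG sites had 183 methylated calls of 223 in bone sample 1 (82.1%) and 102 of 172 in bone sample 2 (59.3%, mean 70.7% ± 16.1, SD, n = 2). Of end regions with 15 to 39 CpG sites the medians were 80.6% and 61.6%, close to the values of ADIPOQ. All 16 sites were called 5 times or more in both samples, 15 were higher in bone sample 1, and the lowest was at 37.5% and 33.3%.

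A single window of ADIPOQ was low in both samples. It lay 5000 to 6000 bp inside the gene, with 4 CpG sites between 80422461 and 80422587. There 0 of 25 calls were methylated in bone sample 1 and 1 of 43 in bone sample 2. The former allows a share of up to 12% only if calls are taken as independent. These sites lie close enough to share 150-bp reads, with 7, 7, 7 and 4 calls in bone sample 1, so the true limit is higher. The windows around it were not low in either sample. At 6000 bp and beyond the level returned to the range of the rest, and the widest differences lay from 7000 to 8000 bp, at 96.6% and 56.9%, and from 9000 to 10000 bp, at 94.4% and 59.6%. The highest window, from 3000 to 4000 bp upstream, was at 92.7% of 341 calls and 65.5% of 255 calls.

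LEP encodes leptin, by which fat tissue reports its energy stores. Its start region on chromosome 4 (92436143 to 92437401) had 83 CpG sites, and at 20.7% of 1312 calls and 27.1% of 612 calls (23.9% ± 4.52, SD, n = 2) it was above the medians of end regions with 40 or more sites. The methylation was not spread evenly. From 500 to 750 bp upstream it was 43.9% and 47.4%, in the last 250 bp before the start 1.86% of 429 calls and 5.18% of 193 calls, and from 250 to 500 bp inside 63.0% and 49.1%. An almost unmethylated stretch at the start was thus flanked by methylated CpG sites on both sides. By summed calls, LEP had no 1000 bp window under 20% in both samples.

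The lowest window of LEP by mean level was the 1000 bp before the start, at 15.6% and 26.01%. Another dip lay 4000 to 5000 bp upstream, at 27.6% of 58 calls and 25.95% of 131 calls over 7 sites. The highest window was at 87.1% and 77.9%, from 7000 to 8000 bp upstream. The widest differences were from 1000 to 2000 bp upstream, at 88.2% of 51 calls and 41.9% of 167 calls, and from 5000 to 6000 bp inside, at 74.0% of 96 calls and 30.8% of 26 calls.

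LEPR had 97 CpG sites in its start region on chromosome 3 (79837374 to 79838638), at 6.86% of 1748 calls and 11.8% of 706 calls (9.31% ± 3.46, SD, n = 2). The lowest stretch lay around the start itself. In the 250 bp before it 0.935% of 856 calls and 2.42% of 165 calls were methylated, and in the 250 bp after it 2.77% of 505 calls and 0 of 204 calls. The latter allows a share of up to 1.47% if calls are taken as independent, which calls on the same read are not. The edges were methylated, with 86.2% and 56.6% from 500 to 750 bp upstream. From 250 to 500 bp inside, bone sample 1 was at 24.8% and bone sample 2 at 6.49%. LEPR was low only in the windows on either side of its start, and the highest window lay 3000 to 4000 bp upstream, at 89.6% and 69.7%. The neighbouring LEPROT, which lies before LEPR, was at 21.9% and 44.2% at its upper end by summed calls. The unweighted means of the sites there were 38.7% and 28.7%, the opposite direction.

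**Figure D2:**
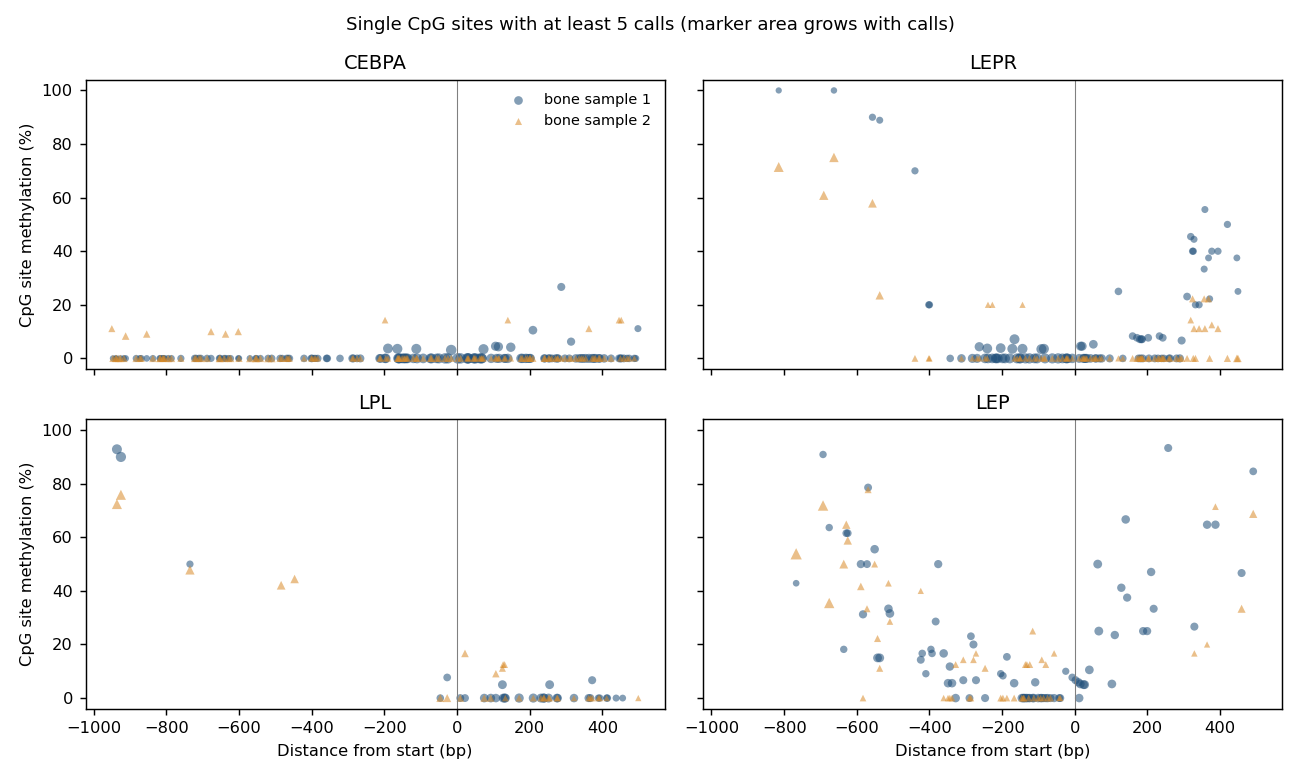
Methylation in percent of single CpG sites with at least 5 calls in the sample, against distance in bp from the start (positive values lie inside the gene), for the 4 members with low starts. Blue circles are bone sample 1 and orange triangles bone sample 2, and marker area grows with the number of calls. Sites near the start lie near 0 in both samples, and the methylated sites of LEPR, LPL and LEP lie toward the edges.

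Within 10000 bp of the starts, 145 of 160 windows of 1000 bp had at least 20 calls in each sample, and 8 were under 20% in both samples. Of these CEBPA held 4, LPL 2, and LEPR and ADIPOQ 1 each. Of all such windows around gene ends, 5.52% were under 20% in both samples. At the far ends 5 of 141 windows were, 4 of them of CEBPA, whose ends lie close together, and 1 of PLIN1.

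**Figure D3:**
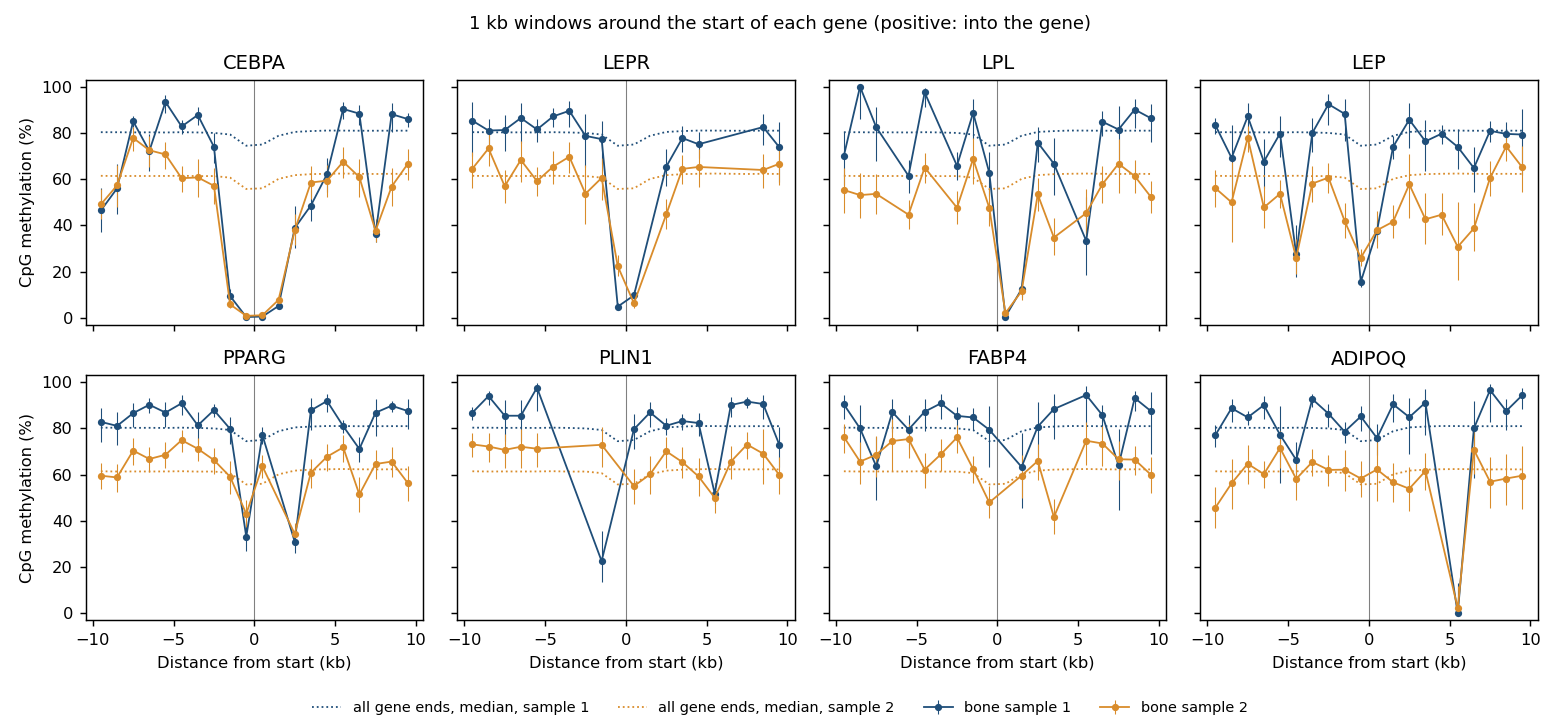
CpG methylation in percent of calls in windows of 1000 bp against distance from the start in kb (positive values lie inside the gene) for the 8 genes, with bone sample 1 in blue, bone sample 2 in orange, 95% Wilson intervals as error bars and windows under 20 calls left out. Dotted lines are medians over all gene ends. CEBPA has the widest low stretch, LPL and LEPR have low windows next to the start, and ADIPOQ has a single low window inside the gene.

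Gene bodies were methylated except for CEBPA. In bone sample 1 and then bone sample 2, the level over the body was 84.6% and 60.6% for ADIPOQ, 81.6% and 59.8% for PPARG, and 77.6% and 60.2% for FABP4. It was 72.5% and 59.6% for LEPR and 71.7% and 55.5% for LEP. PLIN1 was at 62.5% and 48.8%, and LPL was at 51.0% and 47.8%. CEBPA was at 0.593% and 1.11%. All annotated gene bodies had medians of 73.6% and 58.6%, so LEP, PLIN1, LPL and CEBPA lay below the median in both samples, ADIPOQ, PPARG and FABP4 above it, and LEPR below it in bone sample 1 and above it in bone sample 2. Without its first 2000 bp, which hold its low stretch, the mean level of the body of LPL was 64.3% in place of 49.4%.

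The comparison of the samples asks how far the values of the members hold from one bone library to the other. It compares 2 libraries and not conditions, takes calls as independent, although sites on the same read are not, and so gives p-values that are too small. Summed over each start region, the calls of 7 members differed at an adjusted p under 0.05 by Fisher's exact test, 4 of them higher in bone sample 1 (ADIPOQ, PPARG, FABP4 and PLIN1) and 3 higher in bone sample 2 (LEP, LPL and LEPR). Of all end regions 72.3% differed, so a count of 7 is near what most regions gave. Of those that differed, 14.5% were higher in bone sample 2. Among all regions with a mean level under 30%, 39.99% both differed and were higher in bone sample 2. At the far ends 5 members differed, and of the bodies 7 differed, all higher in bone sample 1, against 86.6% of all gene bodies, of which 87.7% were higher in bone sample 1.

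Since bone sample 1 was higher in the genome as a whole, a second test, the noncentral form of the exact test, was run against the odds ratio of all calls on the chromosomes, 1.84. Against that ratio 3 start regions differed, LEP, LPL and LEPR, each higher in bone sample 2 than the ratio gives, and 43.1% of all end regions differed. All 3 had a mean level under 30%, and of all end regions under that mean 64.5% differed on the side of bone sample 2. For LEP the odds ratio was 0.702 (adjusted p = 3.51e-15, noncentral exact test), for LPL 0.463 (2.54e-12) and for LEPR 0.553 (4.36e-13). ADIPOQ, at an odds ratio of 3.12, did not pass (adjusted p = 0.0539, noncentral exact test). At the far ends 1 member passed, CEBPA, at 4.19% and 9.15%, but the unweighted means of its sites there were 6.47% and 6.31%.

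The odds ratio of LEP, LPL and LEPR crossed 1 when the CpG sites were compared one by one, and only for LEPR did the samples then differ. Of the calls over the start region of LEPR, 49.0% in bone sample 1 but 23.4% in bone sample 2 fell in the unmethylated 250 bp before the start, and 1.66% and 11.8% fell in the methylated stretch from 500 to 750 bp upstream. Site by site, 40 of 86 sites of LEPR were higher in bone sample 1 and 3 were higher in bone sample 2. When the samples were compared at each site and the sites then combined, the odds ratio of LEPR turned from 0.553 to 5.05, higher in bone sample 1 (adjusted p = 1.73e-12, exact test stratified by site). For PPARG it went from 1.61 to 1.13 and no longer differed (adjusted p = 0.503, stratified exact test), and the unweighted difference, bone sample 1 minus bone sample 2, was -0.905 points. For LEP it turned from 0.702 to 1.12 and for LPL from 0.463 to 1.30, and neither then differed (adjusted p = 0.551 and 0.554, stratified exact test). The unweighted difference of LPL, -2.17 points, kept the direction of its summed calls. At the far end of CEBPA the odds ratio turned from 0.432 to 1.18, which did not differ from 1 (adjusted p = 0.403, stratified exact test). It was still below the genome-wide ratio computed in the same way (adjusted p = 0.00132, stratified exact test).

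The summed and the site by site direction also parted in low regions in general. In end regions with a mean level under 30%, bone sample 1 had 20.4 calls per site and bone sample 2 had 7.56. Bone sample 2 was higher in 66.1% of these regions by summed calls and in 26.1% by the unweighted mean of the sites. Site by site, 4 members differed at their start, ADIPOQ, FABP4, PLIN1 and LEPR, all higher in bone sample 1, against 66.5% of all end regions. Relative to the genome-wide ratio computed site by site, 2.45, LEPR lay on the side of bone sample 1 and PPARG and LEP on that of bone sample 2, 3 members in all, against 18.1% of end regions. Between the ways of counting, LEPR thus went from one side of the genome-wide ratio to the other, while LEP stayed on that of bone sample 2.

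**Figure D4:**
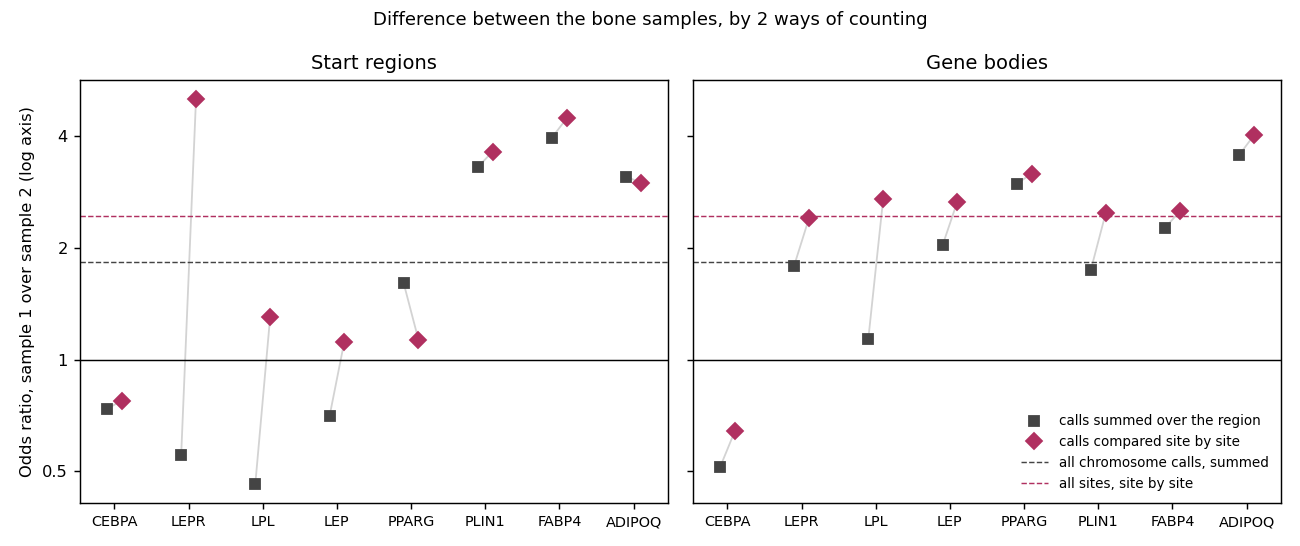
Odds ratio of methylation, bone sample 1 over bone sample 2, on a log axis for the start regions (left) and gene bodies (right) of the 8 genes, with calls summed over the region (squares) and compared site by site (diamonds). The solid line is an odds ratio of 1, and dashed lines are the genome-wide ratios, 1.84 summed and 2.45 site by site. LEPR, LPL and LEP cross the line of 1 between the ways of counting at their start regions, and no gene body does.

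In gene bodies the way of counting mattered less. Relative to the genome-wide ratio 4 bodies differed, ADIPOQ and PPARG on the side of bone sample 1 and CEBPA and LPL on that of bone sample 2, against 71.1% of all bodies. The odds ratio was 3.57 for ADIPOQ (adjusted p = 7.55e-10, noncentral exact test) and 2.98 for PPARG (4.58e-66). Site by site 3 of these remained, ADIPOQ, PPARG and CEBPA, against 40.9% of all bodies, and the odds ratio of LPL moved from 1.14 to 2.71. ADIPOQ, at 4.03, had the largest site by site odds ratio of the 8 bodies.

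Of the 145 windows around the starts, 56 differed relative to the genome-wide ratio, 43 on the side of bone sample 1 and 13 on that of bone sample 2, against 27.5% of all windows. Of all windows called, 73.1% lay on the side of bone sample 1. ADIPOQ held 10 of them, all on the side of bone sample 1, CEBPA 11, PPARG and LEP 8 each, PLIN1 7, LPL 6, FABP4 4 and LEPR 2. Site by site 25 windows differed, 12 on the side of bone sample 1, against 12.9% of all windows. The widest differences with bone sample 1 higher lay at FABP4, from 3000 to 4000 bp inside (88.4% of 43 calls and 41.7% of 156), at LPL, from 8000 to 9000 bp upstream (24 of 24 calls and 51 of 96), and at LEP (given above). The other wide differences lay at FABP4 from 8000 to 9000 bp (93.1% and 66.5%) and at LPL from 9000 to 10000 bp inside (86.4% and 52.4%). Site by site these windows no longer differed relative to the genome-wide ratio (adjusted p = 0.0700 and 0.160, stratified exact test). Neither did LEP from 5000 to 6000 bp inside (adjusted p = 0.213, stratified exact test). The call was also lost inside ADIPOQ from 7000 to 8000 bp (0.0949) and PLIN1 from 1000 to 2000 bp (0.208). Inside PPARG it was lost from 3000 to 4000 and from 9000 to 10000 bp (0.151 for both). It held inside ADIPOQ from 9000 to 10000 bp (0.0208). For CEBPA the wide differences lay downstream of the start, outside its unmethylated stretch. They were from 8000 to 9000 bp (88.1% and 56.8%) and from 6000 to 7000 bp (88.3% and 60.9%). Both held site by site (adjusted p = 0.0466 and 0.0456, stratified exact test). Inside PPARG, from 2000 to 3000 bp, bone sample 2 was higher than the genome-wide odds ratio gives (adjusted p = 2.98e-05, noncentral exact test). Site by site that call held (adjusted p = 2.42e-05, stratified exact test). At PLIN1, in the window from 1000 to 2000 bp upstream, bone sample 2 was higher than the genome-wide odds ratio gives (adjusted p = 1.77e-12, noncentral exact test). It still was site by site (adjusted p = 0.00534, stratified exact test), while at an odds ratio of 1 the site by site comparison did not pass (adjusted p = 0.0741). At LEPR the 2 called windows went opposite ways by summed calls, with 87.1% and 65.4% from 4000 to 5000 bp upstream and 4.92% and 22.4% in the last 1000 bp before the start. In the latter the site by site odds ratio was 3.11, higher in bone sample 1 (adjusted p = 0.00104, stratified exact test), and in the former it was 3.25. Relative to the genome-wide ratio neither window differed site by site (adjusted p = 0.581 from 4000 to 5000 bp upstream and 0.521 before the start, stratified exact test).

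Other genes of the fat cell programme were taken from a list of 53 genes, and both ends of each were measured. Among them are genes of transcription control and of lipid synthesis, storage, breakdown and hormone action. At least 1 end under 20% in both samples was found for 30 of the 53, or 56.6%, against 35.2% of all genes and 51.6% of protein-coding genes. The median lowest end of the list was at 9.03% and 13.5%, against 12.3% and 16.7% for protein-coding genes and 52.02% and 39.1% for all genes. The lowest ends belonged to SCD, which encodes the desaturase that makes monounsaturated fatty acids (0.432% and 0.940%), STAT3, which carries leptin's signal (0.888% and 0.491%), and SOCS3, which limits that signal (0.521% and 1.00%).

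The highest ends of that list belonged to ADIPOR1, a receptor of adiponectin (91.3% and 82.3%), UCP1, the uncoupling protein of brown fat (87.8% and 81.3%), and EBF1, a transcription factor shared by fat and B cell precursors (91.1% and 77.0%). Their other ends were lower, at 24.9% and 26.1% for ADIPOR1, 14.7% and 13.5% for UCP1 and 54.7% and 43.1% for EBF1, so UCP1 is among the 30 genes with a low end. Of the 105 end regions of the list, 58 differed relative to the genome-wide ratio, 20 on the side of bone sample 1 and 38 on that of bone sample 2, and site by site 28 did. Of all end regions 29894 differed relative to that ratio (43.1%), 15821 on the side of bone sample 1 and 14073 on that of bone sample 2. Of end regions of protein-coding genes 47.9% differed, 8353 and 11319. Site by site the list split into 8 and 20, and 18.1% of all end regions differed, 4796 and 7723. The largest differences past the threshold were at PCK1, an enzyme of glyceride and glucose synthesis (83.8% and 49.0%), LIPE, hormone-sensitive lipase (65.7% and 32.4%), and GPIHBP1, which holds LPL on vessel walls (70.7% and 40.6%). Among these ends, those of PCK1 and GPIHBP1 also differed relative to the genome-wide ratio site by site, and that of LIPE did not (adjusted p = 0.114, stratified exact test), though it differed at an odds ratio of 1 (adjusted p = 9.67e-12).

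Marker genes of the cells that bone can hold were measured in the same way, by the number of genes with an end under 20% in both samples, which 35.2% of all genes and 51.6% of protein-coding genes had. These were 3 of 8 for bone forming cells, 0 of 4 for osteocytes, 2 of 5 for osteoclasts, 3 of 11 for white blood cells, 0 of 6 for red blood cells and 3 of 3 tested for cartilage. For marrow stroma they were 3 of 4, CXCL12, FOXC1 and EBF3, and the remaining gene, KITLG, was at 81.7% and 64.5% at one end and 83.3% and 47.98% at the other. Of genes of liver, a tissue the samples should lack, 0 of 5 had such an end. Of genes of skeletal muscle, which lies beside bone and can be cut with it, 2 of 5 had one. The osteocyte gene list had no low end in either sample, and its lowest ends had medians of 74.8% and 48.6%, above the medians of all genes given before. This was not particular to osteocytes. The medians of the liver list, 72.8% and 51.6%, and of the red blood cell list, 62.4% and 46.7%, were also above them. With methylation alone, the share of fat cells in the samples was not tested.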

How the data were processed

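DNA from 2 bone samples was sequenced by WGBS in 150-bp read pairs. The submitters' notes name FastQC 0.11.5, Trim Galore 0.4.5, Bowtie2 and Bismark 0.19.0 with the ARS-UCD1.2 build, whereas the study's methods state UMD3.1.1. The authors deposited methylated and unmethylated counts per CpG cytosine after removal of duplicates. Lambda spike-in reads were not analysed here.

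Strands were merged, and regions with at least 20 calls in each sample were compared by two-sided exact tests on summed calls, with Benjamini-Hochberg adjustment over all end regions (69315), gene bodies (31943) or windows (1276097) and a threshold of 0.05. The odds ratio tested was 1 or that of all calls on chromosomes 1 to 29 and X (1.84). Comparison site by site used the Mantel-Haenszel odds ratio and the exact conditional test stratified by CpG site, with the stratified score test in its place for the largest regions (17 end regions, 159 windows and 1853 bodies). It was added after the summed values had been seen. Calls totalled 582241763 and 440334436, of which 462047525 and 406703424 lay on these chromosomes. Wilson intervals and the upper limit after 0 methylated calls (3 calls of the total) cover counting error only and take calls as independent.

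The members, gene lists and tests were chosen with earlier results of these data known. All members were named, with their lowest, highest and 2 most different windows (the highest by mean level), and of the 53 other fat cell genes the 3 lowest, 3 highest and 3 most different ends. The design assumed promoters by strand, but the gene table (RefSeq, ARS-UCD2.0) gives none, so both ends of each gene formed the background. On 29 of 30 chromosomes the last gene ended inside the last CpG site. No sequences were printed, since no genome was used.

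In simulated data of 20000 end regions with 200 changed by 30 percentage points, the test at an odds ratio of 1 recovered 88.5% and called 9 unchanged regions. At the genome-wide ratio it recovered 90% and called 3. At 15 points the shares were 28.5% and 33%. Site by site, in 1638 simulated end regions of chromosome 22, none was called when unchanged and 98.7% were when the odds ratio was multiplied by 4. All simulated calls were independent, so calls that share a read were not covered. The summed tests were simulated with 1 level per sample in each region, and only regions of intermediate level were changed. Uneven calls over sites and low starts were thus not covered, and these counts do not give the error rate in the real data. Alternatives changed the extent of the start region, limits, minimum calls, weighting and sites used. Computation was in Python 3.11.15 with scipy 1.17.1 and numpy 2.4.6, compiled loops in numba 0.67.0, tables in pandas 2.3.3 with pyarrow 21.0.0, and plots in matplotlib 3.10.9.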

Additional observations from a re-analysis of the deposited data

How the results depend on the processing

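The number of members with a start under 20% in both samples, 2, became 4 with the start region of 250 bp outside to 50 bp inside, 4 at a limit of 30%, 1 at a limit of 10% and 1 at the opposite end. It became 3, with LPL added, by the unweighted mean of sites and with only sites of at least 5 calls in each sample. The number that differed, 7, became 1 with the short region, 2 with 1 CpG site per 300 bp and 4 site by site, and the number relative to the genome-wide ratio, 3, became 6 with 2000 bp outside to 500 bp inside, 1 with 1 site per 300 bp and 1 at the opposite end. With the short region it was 2, LEP and PPARG (adjusted p = 0.0179 and 0.00482, noncentral exact test). LPL and LEPR then lost that call (adjusted p = 0.639 and 0.218, noncentral exact test). Of the other fat cell genes, 30 had a low end, against 19 with the 2000 bp region, and 58 ends differed, against 8 with the short region, 11 with 1 site per 300 bp and 28 site by site. The 56 differing windows became 5 with 1 site per 300 bp and 25 site by site. Fewer calls enter the short region and the single sites. With 1 site per 300 bp 108 windows were tested in place of 145. The start of FABP4 had too few calls to be tested in that setting or in the short region. For the short region, the 2000 bp region and 1 site per 300 bp, the share of all regions that differed is not given. These counts thus show how calls depend on the setting and are not results about the members.

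Odds ratios crossed 1 for PPARG (0.796, short region), PLIN1 (0.928, 2000 bp region), CEBPA, LPL and LEPR (1.42, 1.09 and 1.79, 1 site per 300 bp), and LEP, LPL and LEPR (1.12, 1.30 and 5.05, site by site). The unweighted difference, sample 1 minus sample 2, crossed 0 for PPARG (-0.905 points), LEP (1.77) and LEPR (7.65). Body odds ratios kept their call and direction against an odds ratio of 1 in all 31 recalculations. Relative to the genome-wide ratio the number of bodies called, 4, ranged from 3 to 6, and LPL lost its call site by site. Site by site testing and the opposite end were chosen after seeing the data. The body of CEBPA is too short to leave out 2000 bp. Leaving out a replicate gave levels but no test. No paired analysis was possible because both samples belong to 1 group.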
